A study of Mus musculus with 12 samples.

Results

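Levels of 7 genes were followed across 3 lines of mouse embryonic fibroblasts: the chemokine genes Cxcl1, Cxcl5, Cxcl12, Ccl2 and Ccl7, the complement gene C3 and Il1rl1, which encodes the receptor for the cytokine IL-33. The genes were picked by symbol from the 15156 named entries of the count table, with their levels in the lines already known, and all 7 of 7 passed the filter on low counts that left 14392 genes for testing. Differences of these 7 genes between lines are therefore given as a description, with a fold and its error but no p-value.

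RNA was extracted from cells that had been immortalised with papillomavirus E6, a protein that promotes degradation of p53, and grown for 24 h in DMEM with 10% fetal bovine serum. The study compared cells with and without Cdkn1b, the gene of the cyclin-dependent kinase inhibitor p27. The groups were 2 wild-type lines (labelled clone 1 and clone 2, here wild-type line 1 and line 2) and 1 line labelled p27-/-, with 4 libraries each, numbered as experiments 1 to 4. All 3 lines carried E6 and received the same medium. Because the p27-/- genotype was represented by 1 line, genotype and line cannot be told apart, and p-values measure the spread between libraries of these lines. The labels do not say whether the 4 experiments of a line were separate cultures.

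The depth was 15.4 to 24.0 M counts in named genes per library (SD 2.18 M, n = 12). Levels are counts per 1 M counts in named genes (CPM), scaled by TMM factors. The targeted gene did not separate the groups at the level of the whole gene: Cdkn1b ran from 83.7 to 118 CPM in the libraries labelled p27-null, from 86.8 to 101 in wild-type line 1 and from 88.6 to 120.0 in wild-type line 2, so the p27-null label stands as given and was not checked by its transcript. Xist, the noncoding RNA of the inactive X chromosome, averaged 0.0901 ± 0.112 CPM (SD, n = 4) in the line labelled p27-null, against 716 ± 249 and 739.8 ± 139 in wild-type lines 1 and 2. Fibroblast markers were abundant as a sum, with 9 of 11 listed genes measured and a summed level of 17797 to 23800 CPM, 16964 to 23608 CPM and 21001 to 28323 CPM in the line labelled p27-null and wild-type lines 1 and 2. Single fibroblast markers differed: Dcn averaged 0.274 CPM in the line labelled p27-null against 38.3 and 13.8 in wild-type lines 1 and 2 (pooled log2 difference -6.55, edgeR adjusted p = 0.000224), and Vim was higher there (0.69, adjusted p = 0.00274). Of 11 macrophage markers, 4 were measured (Csf1r, Cd68, Fcgr1 and Mrc1), none of them at 0 throughout a line, and their summed level was 2.03 to 2.71 CPM, 3.28 to 4.44 CPM and 2.60 to 3.44 CPM in the same order. Endothelial markers (4 of 5 measured) summed to 0.688 to 2.42, 6.37 to 16.96 and at most 1.94 CPM, and epithelial markers (2 of 4) to 0, 0.104 to 0.584 and 0.207 to 1.49 CPM, while mast cell, neutrophil and T cell markers were not analysed here. The part of these markers and of Xist in the results below was not tested. In experiment 1, the library labelled p27-null and that of wild-type line 1 stood apart: their counts differed from those of the other libraries of the same line with a chi-square per degree of freedom of 45.7 to 66.5 and 32.9 to 57.7, against 10.3 to 14.3 and 10.9 to 26.7 among the remaining libraries. Within wild-type line 2 the values ran from 11.6 to 38, highest for its experiment 3 library, which overlaps the values of the wild-type line 1 library. The pair also deviated together from their line means (r = 0.86 across 10717 genes, which are not independent replicates), against 0.11 to 0.45 for the other same-numbered pairs. In bulk RNA, fewer cells that express a gene and less RNA per cell cannot be told apart.

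Chemokines are small secreted proteins that direct migrating leukocytes through G protein-coupled receptors. Fibroblasts are a known source of them: Cxcl1 and Cxcl5 attract neutrophils through Cxcr2, Ccl2 and Ccl7 attract monocytes through Ccr2, and Cxcl12 retains and guides many cell types through Cxcr4. C3 is the component on which the complement pathways converge, and its cleavage yields the anaphylatoxin C3a and the opsonin C3b. Il1rl1 encodes ST2 in a membrane form, which signals with Il1rap, and in a soluble form that captures IL-33; gene-level counts join both forms.

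Promoter windows are shown for the 3 genes whose libraries labelled p27-null lay wholly outside the wild-type range, and both Il1rl1 starts are shown because its counts join transcripts from them. RefSeq start sites (GRCm38.p6) were found for 4 of the 7 genes, with 5 windows of 250 bases upstream of the start, and for Cxcl5, Ccl2 and Ccl7 no window was used. Capitals mark matches to a kappaB motif taken without its first base, GGNNTTTCC, or to a C/EBP motif, TTNNGNAAT, each searched on both strands. The Cxcl1 window is chr5:90890995-90891244 on the plus strand, the C3 window chr17:57228137-57228386 on the minus strand, and the Il1rl1 windows chr1:40429320-40429569 and chr1:40439379-40439628 on the plus strand, all written 5′ to 3′ along the gene.
Cxcl1: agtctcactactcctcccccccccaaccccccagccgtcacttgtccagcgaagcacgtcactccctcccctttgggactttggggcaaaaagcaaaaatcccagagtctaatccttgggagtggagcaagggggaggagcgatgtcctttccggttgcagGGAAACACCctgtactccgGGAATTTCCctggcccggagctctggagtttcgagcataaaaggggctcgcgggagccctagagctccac
C3: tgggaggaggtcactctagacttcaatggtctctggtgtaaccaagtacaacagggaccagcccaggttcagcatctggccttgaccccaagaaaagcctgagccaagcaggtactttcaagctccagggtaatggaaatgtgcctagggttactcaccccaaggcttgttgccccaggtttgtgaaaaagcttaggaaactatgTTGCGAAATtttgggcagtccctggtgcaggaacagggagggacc
Il1rl1 start 1: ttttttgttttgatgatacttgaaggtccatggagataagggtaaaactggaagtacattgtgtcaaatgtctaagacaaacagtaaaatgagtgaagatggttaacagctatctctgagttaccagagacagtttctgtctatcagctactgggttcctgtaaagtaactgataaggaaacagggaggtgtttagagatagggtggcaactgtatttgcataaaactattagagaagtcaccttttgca
Il1rl1 start 2: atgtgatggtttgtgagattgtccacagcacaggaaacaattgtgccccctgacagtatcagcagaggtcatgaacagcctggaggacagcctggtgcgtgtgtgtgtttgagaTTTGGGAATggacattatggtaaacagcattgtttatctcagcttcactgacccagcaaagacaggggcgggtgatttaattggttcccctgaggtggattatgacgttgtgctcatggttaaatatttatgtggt

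The Cxcl1 window held 2 kappaB matches. The match GGAATTTCC lay 70 to 62 bases upstream of the start on the plus strand, and GGAAACACC, a match read on the minus strand, 89 to 81 bases upstream. A kappaB match was present in 4.93% of all 32536 windows. The C3 window held a C/EBP match, TTGCGAAAT, 45 to 37 bases upstream, and the second Il1rl1 window held TTTGGGAAT 136 to 128 bases upstream, while 10.2% of all windows held such a match. Neither motif was found in the first Il1rl1 window or in the Cxcl12 window. An AP-1 motif, TGANTCA, and a TATA motif, TATAAA, were found in none of the 5 windows, against 6.73% and 12.3% of all windows. These matches describe letters in the windows and carry no information on binding in these cells.

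In the GRCm39 annotation the chemokine genes form pairs. Cxcl1 (ENSMUSG00000029380, chr5:91039094-91040974, plus strand) and Cxcl5 (ENSMUSG00000029371, chr5:90907186-90909483, plus strand) lie 130 kb apart. Ccl2 (ENSMUSG00000035385, chr11:81926397-81928279) and Ccl7 (ENSMUSG00000035373, chr11:81936532-81938351) lie 8.25 kb apart, both on the plus strand. Cxcl12 (ENSMUSG00000061353) is at chr6:117144945-117158328 and Il1rl1 (ENSMUSG00000026069) at chr1:40468730-40504575, both on the plus strand, and C3 (ENSMUSG00000024164) at chr17:57510964-57535155 on the minus strand. All 7 are protein-coding, and counts were taken over whole genes. Cxcl5 overlaps 1 other annotated gene, Gm72413, on the opposite strand. C3 overlaps 2, Gm65552 on the opposite strand and Mir6978 on its own strand, which no strand setting separates. The counting may or may not have separated opposite strands, since its strand setting is not given in the sources used here.

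Of the neutrophil chemokines, Cxcl1 was lower in the line labelled p27-null than in both wild-type lines, and Cxcl5 was found almost only in wild-type line 2. Cxcl1 was at 2.98, 3.90, 2.23 and 2.02 CPM in experiments 1 to 4 of the line labelled p27-null. The 4 wild-type line 1 libraries had 10.6, 5.84, 9.56 and 13.1 CPM, and those of wild-type line 2 had 11.7, 11.6, 10.9 and 9.20 CPM. Every library labelled p27-null lay below every wild-type library, and the wild-type lines overlapped. The means were 2.78 ± 0.854 (SD, n = 4), 9.77 ± 3.02 and 10.9 ± 1.17 CPM, a ratio of 3.51 for wild-type line 1 and of 3.91 for wild-type line 2 over the line labelled p27-null. On the log2 scale the fitted difference was -1.89 ± 0.24 (SE) against both lines pooled, -1.81 ± 0.25 against line 1 and -1.96 ± 0.25 against line 2, while line 2 differed from line 1 by 0.16 ± 0.23. Leaving out any 1 library kept the pooled value between -2.09 and -1.74.

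Cxcl5, also a Cxcr2 ligand, was at 0 counts in every library labelled p27-null. In wild-type line 1 it had 1, 1, 5 and 0 counts, which is 0.0520, 0.0556, 0.266 and 0 CPM. In wild-type line 2 it had 535, 432, 319 and 422 counts, or 22.2, 24.7, 17.6 and 23.8 CPM. Wild-type line 2 thus stood apart from both other lines, whose ranges overlapped at 0. With the floor set at 3 counts for the whole group (0.0448 CPM), Cxcl5 was at least 493-fold higher in wild-type line 2 than in the line labelled p27-null, a limit that covers counting error only. The ratio of the wild-type means was 237, and the fitted log2 difference of 7.73 ± 0.37 (SE) became 8.95 without the experiment 3 library of wild-type line 1, which held 5 of the 7 counts. Cxcl1 and Cxcl5 together amounted to 2.78 ± 0.854 CPM (SD, n = 4) in the line labelled p27-null, 9.87 ± 2.997 in wild-type line 1 and 32.9 ± 3.21 in wild-type line 2.

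**Figure D1:**
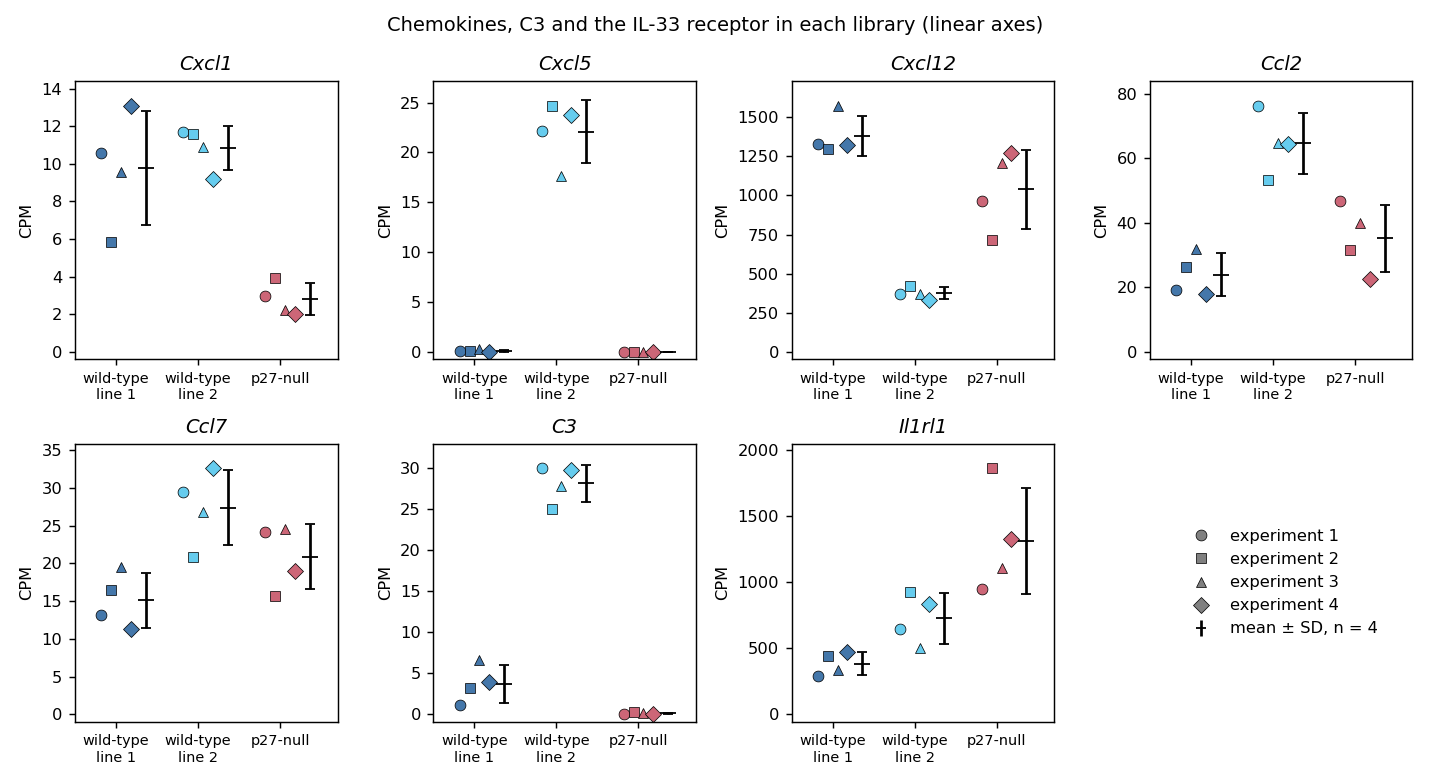
Level of each of the 7 genes in each library, in counts per 1 M (CPM) on linear axes, by line; symbols give the experiment number and bars the mean ± SD of 4 libraries. Cxcl1 and C3 were lowest and Il1rl1 highest in the line labelled p27-null, Cxcl5 was near 0 outside wild-type line 2, and Cxcl12 was lowest in wild-type line 2.

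Other genes within 250 kb of Cxcl1 or Cxcl5 differed in their order of lines. Ppbp, a further neutrophil-attracting chemokine 6.89 kb from Cxcl5, averaged 22.1 CPM in wild-type line 2, 0.996 in wild-type line 1 and 4.38 in the line labelled p27-null, and was higher in line 2 than in line 1 by a log2 difference of 4.45 ± 0.45 (edgeR adjusted p = 3.71e-06). Cxcl2, 10.8 kb from Cxcl1, averaged 0.301 CPM in wild-type line 2 and 0 in both other lines, and Cxcl15 had 1 count in a single library. Mthfd2l, a metabolic enzyme gene 37.9 kb from Cxcl1, was at 23.9, 21.7 and 25.4 CPM in the line labelled p27-null and wild-type lines 1 and 2 (pooled log2 difference 0.02, edgeR adjusted p = 0.899). The ligand gene Ereg, 181 kb from Cxcl1, was lower in the line labelled p27-null (20.6 CPM, against 34.9 and 46.8 in wild-type lines 1 and 2; log2 difference -0.99, edgeR adjusted p = 0.0197). Rassf6, 119 kb from Cxcl5, had the opposite order to Cxcl5 between the wild-type lines, at 8.66, 3.94 and 1.05 CPM in the line labelled p27-null and wild-type lines 1 and 2 (line 2 against line 1 -1.92, edgeR adjusted p = 0.00038). Areg, 246 kb from Cxcl1, was highest in wild-type line 1, at 0.234, 2.12 and 0.171 CPM (line 2 against line 1 -3.60, edgeR adjusted p = 5.24e-05).

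Cxcl12 had more counts than the other 4 chemokine genes in every library, unscaled by length, and it separated the wild-type lines more than it separated the line labelled p27-null from wild-type line 1. Its level was 1331, 1297, 1575 and 1325 CPM in wild-type line 1. In wild-type line 2 it was 372, 422, 372 and 330.3 CPM. In the line labelled p27-null it was 963, 713, 1209 and 1271 CPM. No ranges overlapped: wild-type line 1 was highest (1382 ± 130 CPM, SD, n = 4), the line labelled p27-null followed (1039 ± 255) and wild-type line 2 was lowest (374 ± 37.6). The ratio of means was 1.33 for wild-type line 1 over the line labelled p27-null, 2.78 for that line over wild-type line 2 and 3.70 between the wild-type lines. The fitted log2 differences of the line labelled p27-null were -0.41 ± 0.16 (SE) against line 1 and 1.47 ± 0.16 against line 2. The pooled value of 0.24 ± 0.46, against all wild-type libraries as a single group, hides these opposite directions.

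The receptors of Cxcl12 were at lower levels. Ackr3, which binds and removes Cxcl12, averaged 11.1 CPM in the line labelled p27-null, 20.1 in wild-type line 1 and 24.8 in wild-type line 2, and fell in the pooled comparison (log2 difference -1.02 ± 0.15, SE; edgeR adjusted p = 0.00058). Cxcr4, the signalling receptor, had 1 count in the line labelled p27-null, 46 in wild-type line 1 and 33 in wild-type line 2, and was below the filter. Cxcr2, Ccr1, Ccr2 and Ccr3 were not analysed here.

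The neighbouring monocyte chemokine genes Ccl2 and Ccl7 had the same order of lines, with wild-type line 2 highest and wild-type line 1 lowest. Ccl2 was at 46.7, 31.6, 40.01 and 22.7 CPM in the line labelled p27-null. The wild-type line 1 libraries had 19.2, 26.4, 32.03 and 17.8 CPM, and those of wild-type line 2 had 76.4, 53.2, 64.9 and 64.4 CPM. Wild-type line 2 (64.7 ± 9.50 CPM, SD, n = 4) lay above both other lines, while the ranges of the line labelled p27-null (35.3 ± 10.4) and wild-type line 1 (23.9 ± 6.64) overlapped. Within each of the 4 experiments, however, the level in the line labelled p27-null lay between those of the wild-type lines. Fitted log2 differences of the line labelled p27-null were 0.56 ± 0.22 (SE) against line 1 and -0.88 ± 0.22 against line 2, with -0.33 ± 0.40 against both pooled, and line 2 exceeded line 1 by 1.44 ± 0.22. The difference from line 1 was 0.29 when both outlying experiment 1 libraries were left out.

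Ccl7 was at 24.2, 15.7, 24.6 and 19.04 CPM in the line labelled p27-null. The wild-type line 1 libraries had 13.2, 16.5, 19.5 and 11.3 CPM, and those of wild-type line 2 had 29.4, 20.8, 26.8 and 32.6 CPM. The line labelled p27-null (20.9 ± 4.28 CPM, SD, n = 4) overlapped both wild-type lines (15.1 ± 3.62 and 27.4 ± 4.98), which did not overlap each other. The order within an experiment held against wild-type line 2 in 4 of 4 experiments and against wild-type line 1 in 3 of 4, with experiment 2 as the exception. The fitted log2 differences were smaller than for Ccl2: 0.47 ± 0.19 (SE) against line 1, -0.39 ± 0.19 against line 2, -0.02 ± 0.27 against both pooled and 0.86 ± 0.19 for line 2 over line 1. The sum of Ccl2 and Ccl7 was 56.2 ± 13.8 CPM in the line labelled p27-null, 38.96 ± 10.2 in wild-type line 1 and 92.1 ± 13.4 in wild-type line 2.

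C3 had the widest spread of levels between lines among the members with counts in every library. The wild-type line 2 libraries had 30.02, 25.1, 27.9 and 29.8 CPM, and those of wild-type line 1 had 1.09, 3.17, 6.64 and 3.999 CPM. In the line labelled p27-null it was at 0.0574, 0.237, 0.131 and 0.0577 CPM, which rests on 1, 4, 2 and 1 counts. No line overlapped another: every library labelled p27-null lay below every wild-type library, and wild-type line 1 lay below wild-type line 2. The means were 0.121 ± 0.0847 (SD, n = 4), 3.73 ± 2.30 and 28.2 ± 2.30 CPM, so the ratio to the line labelled p27-null was 30.9 for wild-type line 1 and 234 for wild-type line 2, and the wild-type lines differed 7.57-fold. The fitted log2 differences were -4.88 ± 0.62 (SE) against line 1, -7.80 ± 0.54 against line 2 and -6.98 ± 1.22 against both pooled, and the pooled value lay between -7.52 and -6.73 with any 1 library left out. With 8 counts in all in the line labelled p27-null, the size of the fold is known less well than its direction. The genes nearest to C3 in the table were nearly level by comparison: Gpr108, 6.48 kb away, averaged 30.5, 37.3 and 38.2 CPM in the line labelled p27-null and wild-type lines 1 and 2, and Trip10, 20.4 kb away, averaged 74.4, 71.7 and 79.9 CPM.

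C3ar1, the receptor for C3a, followed neither order. It averaged 2.26 CPM in the line labelled p27-null and 3.88 in wild-type line 1 but 0.147 in wild-type line 2, the line with the most C3, and was lower there than in wild-type line 1 by a log2 difference of -4.70 ± 0.35 (SE; edgeR adjusted p = 2.19e-07). In wild-type line 2 it rested on 11 counts.

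Il1rl1 was the member that was higher in the line labelled p27-null than in both wild-type lines. It was at 949, 1863, 1106 and 1330.4 CPM in the line labelled p27-null. The wild-type line 1 libraries had 289, 443, 335 and 471 CPM, and those of wild-type line 2 had 646, 927, 500.0 and 835 CPM. No ranges overlapped, although the lowest library labelled p27-null (949 CPM) was close to the highest of wild-type line 2 (927 CPM). The means were 1312 ± 399 (SD, n = 4), 385 ± 86.8 and 727 ± 191 CPM, a ratio of 3.41 over wild-type line 1 and of 1.80 over wild-type line 2, while wild-type line 2 exceeded line 1 by 1.89-fold. The fitted log2 difference was 1.77 ± 0.24 (SE) against line 1, 0.85 ± 0.24 against line 2 and 1.24 ± 0.29 against both pooled, and 1.02 without the experiment 2 library labelled p27-null, the highest of all 12.

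Of the partners of Il1rl1 in IL-33 signalling, Il1rap, the co-receptor, averaged 28.4 CPM in the line labelled p27-null, 29.2 in wild-type line 1 and 34.2 in wild-type line 2 (pooled log2 difference -0.16 ± 0.19, edgeR adjusted p = 0.622). Il33 itself had 22 counts in the line labelled p27-null, 14 in wild-type line 1 and 4 in wild-type line 2, or 0.333, 0.196 and 0.0415 CPM, below the filter. Il1rl1 lies in a cluster of IL-1 receptor genes, and its neighbours did not all follow it. The nearest, Il18r1, 0.137 kb away, averaged 0.430, 0.124 and 0.512 CPM in the line labelled p27-null and wild-type lines 1 and 2, and was higher than in line 1 (log2 difference 1.74, edgeR adjusted p = 0.0223). Il18r1 had only 1 to 15 counts per library, so the size of this difference is uncertain. Il18rap, a subunit of the IL-18 receptor 49.9 kb away, averaged 36.9, 6.86 and 31.6 CPM in the line labelled p27-null and wild-type lines 1 and 2, and rose against line 1 (log2 difference 2.43, edgeR adjusted p = 6.96e-07) but not detectably against line 2 (0.22, adjusted p = 0.35). Il1rl2, the IL-36 receptor gene 62.0 kb away, was highest in wild-type line 2 (5.86, 3.14 and 12.3 CPM), and Il1r1, the IL-1 receptor gene 112 kb away, fell in the line labelled p27-null (14.1, 21.8 and 33.2 CPM; pooled log2 difference -0.97 ± 0.22, adjusted p = 0.00884).

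Scaled by the length of merged exons, levels can be set side by side between genes. In the line labelled p27-null the mean CPM per kb of exon was 190.3 for Il1rl1, 124 for Cxcl12, 31.01 for Ccl2, 25.9 for Ccl7, 1.48 for Cxcl1 and 0.0233 for C3. In wild-type line 1 it was 166 for Cxcl12, 55.8 for Il1rl1, 20.96 for Ccl2, 18.7 for Ccl7, 5.20 for Cxcl1, 0.719 for C3 and 0.0492 for Cxcl5. In wild-type line 2 it was 105 for Il1rl1, 56.9 for Ccl2, 44.8 for Cxcl12, 33.9 for Ccl7, 11.6 for Cxcl5, 5.78 for Cxcl1 and 5.44 for C3. Il1rl1 thus led in the line labelled p27-null and in wild-type line 2, and Cxcl12 in wild-type line 1. The place of Cxcl12 in wild-type line 2 depends on the length used: with the gene lengths of the authors' deposited table it was 199 CPM per kb, above Ccl2 at 79.6. Summed over the 5 chemokine genes, levels were 1098 ± 254 CPM (SD, n = 4) in the line labelled p27-null, 1431 ± 138 in wild-type line 1 and 499 ± 30.7 in wild-type line 2, an order set by Cxcl12.

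**Figure D2:**
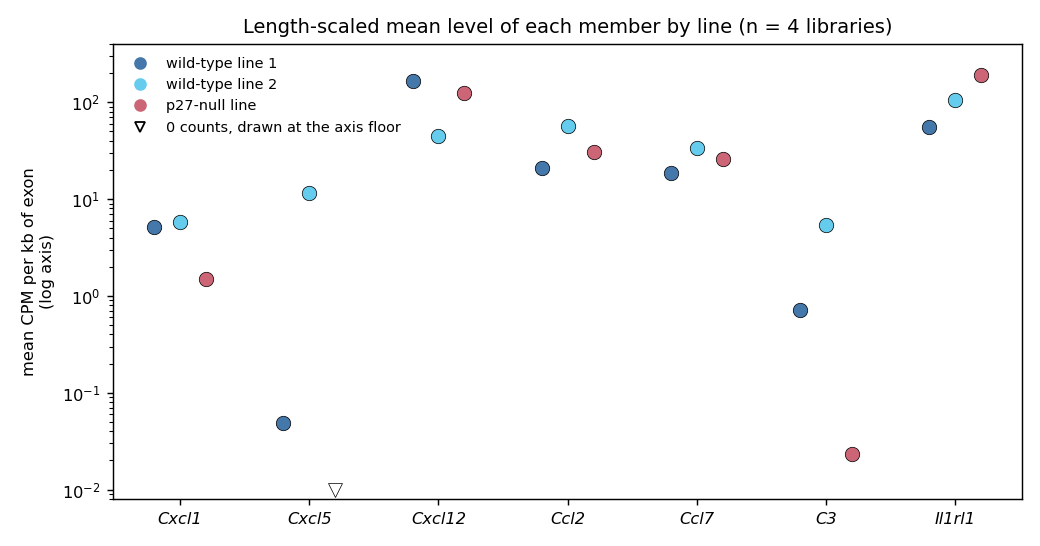
Mean level of each of the 7 genes in CPM per kb of merged exon, on a log axis, by line (n = 4 libraries each); the open triangle marks a gene with 0 counts, drawn at the lower edge. The lines differed most for Cxcl5 and C3 and least for Ccl7, and Il1rl1, at 190.3, was the highest value drawn.

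Set against the whole table, 3 of the 7 members passed the edgeR threshold (adjusted p under 0.05) in the pooled comparison, 1 higher and 2 lower, where 18.8% of all 14392 tested genes passed (8.47% higher and 10.3% lower). Against wild-type line 1, 1 member was higher and 2 were lower (16.8% and 19.3% of all genes, 36.1% in either direction). Against wild-type line 2, 2 were higher and 4 lower (19.2% of all genes each way, 38.4% in either direction). Between the wild-type lines, 5 were higher and 1 lower in line 2 (20.7% and 21.9% of all genes, 42.6% in either direction). Libraries did not overlap for 3 members in the pooled comparison (13.9% of all genes), for 4 against line 1 (33.3%), for 6 against line 2 (38.1%) and for 6 between the wild-type lines (40.8%). Nothing is read from these counts, since the members were chosen from these contrasts, and the comparisons share libraries. The median log2 difference of the members was -0.33 in the pooled comparison, -0.41 against line 1, -0.88 against line 2 and 0.92 for line 2 over line 1, beside -0.03, -0.01, -0.02 and 0.02 for all genes tested. Leaving out both outlying experiment 1 libraries gave pooled log2 differences of -1.93 for Cxcl1, -6.95 for C3, 1.25 for Il1rl1, 0.37 for Cxcl12, -0.62 for Ccl2 and -0.20 for Ccl7. In the authors' deposited table the log2 fold change was, for example, -1.89 with an error of 0.26 for Cxcl1, -7.16 with 0.93 for C3 and 1.23 with 0.24 for Il1rl1. The direction of that column was read from these same counts, so its shared sign for all 7 genes is no independent check.

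Within a line, the 5 members other than C3 and Cxcl5 varied more between experiments than the median gene. The SD of log2 CPM around the line means (prior count 2) was 0.67 for C3, 0.45 for Cxcl5, 0.39 for Il1rl1, 0.38 for Cxcl1, 0.37 for Ccl2, 0.31 for Ccl7 and 0.25 for Cxcl12, against a median of 0.17 over 10717 genes with a mean of at least 5 CPM. Between 73.8% of those genes, for Cxcl12, and 89.8%, for Il1rl1, had a smaller SD than these 5 members. C3 and Cxcl5 passed the minimum of 5 CPM through wild-type line 2, and their SDs rest in part on libraries with 0 to 5 counts, so they are not ranked against other genes. C3 differed 6.08-fold between the highest and lowest library of wild-type line 1 (experiments 3 and 1) and 4.13-fold in the line labelled p27-null, where it rests on few counts, but 1.20-fold in wild-type line 2. Ccl2 was highest in experiment 3 and lowest in experiment 4 of wild-type line 1, as was Ccl7. Il1rl1 was highest in experiment 2 of the line labelled p27-null, where Cxcl12 was lowest, and also in experiment 2 of wild-type line 2, where Cxcl12 was highest. No member had 1 experiment as its highest in all 3 lines.

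**Figure D3:**
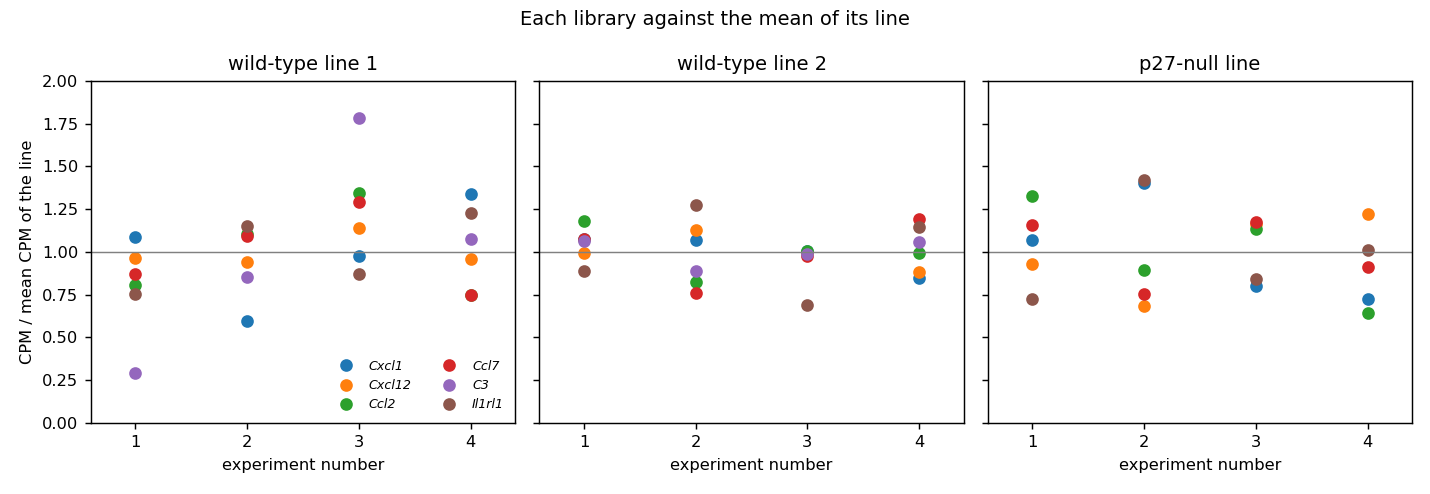
Each library's CPM divided by the mean CPM of its line, by experiment number, for the 6 genes other than Cxcl5 and, in the line labelled p27-null, without C3, whose counts there were 1 to 4. C3 in wild-type line 1 spread most, from 1.09 CPM in experiment 1 to 6.64 CPM in experiment 3.

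The choice of members did not use the experiment number, so experiment 1 (n = 3) could be tested against experiments 2 to 4 (n = 9) with the line as a term. None of the 7 members passed in edgeR, where 18.6% of all genes passed. Il1rl1 was the 1 member at an unadjusted p under 0.05 in edgeR, and none passed in DESeq2. Il1rl1 came closest, with a log2 difference of -0.44 ± 0.19 (SE) and an edgeR adjusted p of 0.115. C3 was at -0.50 ± 0.33 (adjusted p = 0.306) and Ccl2 at 0.20 ± 0.20 (adjusted p = 0.493), and the remaining members lay between -0.08 and 0.15. Single libraries decided this: without the experiment 3 library of wild-type line 2, Il1rl1 reached -0.53 (edgeR adjusted p = 0.0200), and without the experiment 1 library of that line, C3 reached -2.02 (adjusted p = 0.00292). Experiment 1 was then left with only the outlying libraries, where C3 had 21 counts in wild-type line 1 and 1 in the line labelled p27-null. Over all genes, edgeR made 2673 calls, and 55 with both outlying experiment 1 libraries left out, a fit in which experiment 1 is 1 library, of wild-type line 2, assumed to vary like the others.

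The genes whose log2 levels over the 12 libraries most resembled a member differed from one member to the next. Likeness is given as the root mean square difference of centred log2 CPM, over 10717 genes. C3 itself varied by 2.92 on this scale around its mean, and it was closest to Arhgap6 (0.47), Cpxm2 (0.50) and Adam33 (0.67), each near 0 in the line labelled p27-null and highest in wild-type line 2. Cxcl5, with a spread of 3.46, was closest to AI606473 (0.44), the noncoding RNA Hand2os1 (0.71) and its neighbour, the transcription factor gene Hand2 (0.74). Il1rl1, with a spread of 0.79, was closest to Sema5a (0.24), Slc25a37 (0.26) and Gfod1 (0.29). Cxcl12 (spread 0.83) was closest to Helz2, Nherf1 and Igfbp6, all at 0.22. Ccl2 (0.68) was closest to Bpgm (0.24), Rassf3 (0.25) and Ifi27 (0.26), and Ccl7 (0.44) to P4ha3 (0.18), Tpm2 (0.21) and Fcgrt (0.22), so that the neighbouring chemokine genes shared none of these. Cxcl1 (0.94) was closest to Rps3a2 (0.31), Rpl15-ps2 (0.32) and Fhod3 (0.33), and the first pair, which resemble ribosomal protein genes, may share reads with their parent genes.

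Genes of the same pathways were taken from 7 lists of 161 genes, of which 79 were tested. The lists were chosen with earlier results of these data known. The shares below and the adjusted p-values of listed genes are therefore a description, and no excess over all genes is read from them. In the pooled comparison 3 rose and 18 fell in the line labelled p27-null, 26.6% of those tested beside 18.8% of all genes, with a median log2 difference of -0.45. Against wild-type line 1 alone 13 rose and 36 fell (62.0% beside 36.1% of all genes), and against line 2 alone 11 rose and 30 fell (51.9% beside 38.4%). Between the wild-type lines, which share a genotype, 28 rose and 25 fell in line 2 (67.1% beside 42.6%).

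Among other CXC and CX3C chemokines, 2 of 5 tested fell and none rose, 40% beside 18.8% of all genes. Cx3cl1, the membrane-bound ligand fractalkine, averaged 13.4 CPM in the line labelled p27-null, 88.7 in wild-type line 1 and 148 in wild-type line 2 (log2 difference -3.14 ± 0.28, edgeR adjusted p = 1.08e-05). Cxcl14 averaged 15.2 and 26.2 CPM in wild-type lines 1 and 2 (adjusted p = 6.37e-07) and rested on 3 counts in the line labelled p27-null. The wild-type levels were 339 and 584 times the 0.0448 CPM of those counts, with 95% exact Poisson counting intervals of 116 to 1645 and 199.8 to 2831. Of 4 other CC chemokines, Ccl17 (-2.46 ± 0.53, adjusted p = 0.00591) and Ccl25 (-0.71 ± 0.21, adjusted p = 0.0351) fell and Ccl9 rose (1.18 ± 0.32, adjusted p = 0.0217), 75% of those tested. Ccl9 was at 5.16, 1.89, 6.02 and 1.56 CPM in experiments 1 to 4 of the line labelled p27-null. The wild-type libraries had 1.20 to 2.002 CPM, and those of experiments 2 and 4 labelled p27-null lay within that range. Ccl17 rested on 14 counts in the line labelled p27-null. Against wild-type line 2 alone Ccl25 did not pass (log2 difference -0.35, edgeR adjusted p = 0.0825). With the experiment number as a block, Ccl9 and Ccl25 no longer passed (adjusted p = 0.0673 and 0.0611), and leaving out 1 library took the adjusted p to 0.110 and 0.114.

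Of 12 other complement genes 5 fell and none rose in the pooled comparison, 41.7% of those tested beside 18.8% of all genes. Between the wild-type lines 5 were higher and 3 lower in line 2, 66.7% beside 42.6% of all genes. Cr1l and Cd55, named after their values were seen, did not pass in the pooled comparison (edgeR adjusted p = 0.666 and 0.0733). Cr1l averaged 32.5 CPM in the line labelled p27-null and 32.9 and 35.7 in wild-type lines 1 and 2. Cd55 averaged 0, 5.55 and 0.0832 CPM in the same order. Cd59a, which blocks the membrane attack complex, averaged 0.167 CPM in the line labelled p27-null against 3.02 and 5.72 in wild-type lines 1 and 2 (log2 difference -4.67 ± 0.47, edgeR adjusted p = 2.46e-05). Serping1, the C1 inhibitor gene, averaged 0.0887 CPM against 3.19 and 0.714 (-4.34 ± 0.89, adjusted p = 0.00457). In the line labelled p27-null Cd59a rested on 11 counts and Serping1 on 6, so the size of these folds is uncertain. Clu, the gene of clusterin, averaged 3.17 CPM in the line labelled p27-null against 6.48 and 18.1 in wild-type lines 1 and 2. It fell by 1.95 ± 0.54 in the pooled comparison (adjusted p = 0.0230, but up to 0.0769 without the experiment 2 or the experiment 4 library labelled p27-null). Against line 1 alone Clu did not pass (log2 difference -1.04, edgeR adjusted p = 0.0517). C1s1, a classical pathway protease gene named after its value was seen, averaged 2.85 CPM against 4.34 and 40.9 in wild-type lines 1 and 2. It passed the pooled test (edgeR adjusted p = 0.0461, 0.0836 with the experiment block and up to 0.121 with 1 library left out). Against line 1 alone it did not pass (log2 difference -0.62, edgeR adjusted p = 0.301), while against line 2 alone it did (-3.85, adjusted p = 1.03e-05). C1s1 may share reads with a related copy. Unlike C3, Serping1 averaged more in wild-type line 1 than in line 2, so these genes did not share one order of lines.

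In the NF-kB list 1 of 21 genes rose and 3 fell, 19.05% of those tested, close to the 18.8% of all genes. The inhibitor gene Nfkbie fell by 1.70 ± 0.24 (log2, SE; edgeR adjusted p = 0.000364), the kinase gene Map3k14 by 0.77 ± 0.12 (adjusted p = 0.000945) and Tnip1, an adaptor that restrains the pathway, by 0.85 ± 0.16 (adjusted p = 0.00279). Rela, the p65 subunit, rose by 0.33 ± 0.10 (adjusted p = 0.0339), a call lost in 6 of 12 fits with 1 library left out, at up to 0.117. Against wild-type line 1 alone Rela did not pass (log2 difference 0.23, edgeR adjusted p = 0.0853). In the IL-1 family list 2 of 14 fell (14.3% of those tested), Il1r1, already described, and Il18 (-2.58 ± 0.60, adjusted p = 0.0094). Of 22 other mediators 1 rose and 3 fell, 18.2% of those tested beside 18.8% of all genes. Ptx3, a soluble pattern recognition protein, fell by 2.53 ± 0.33 (adjusted p = 0.000213). The prostaglandin synthesis genes Ptges and Ptgs1 fell by 1.58 ± 0.31 and 0.79 ± 0.16 (adjusted p = 0.00366 and 0.00376), and Tslp rose by 1.09 ± 0.21 (adjusted p = 0.00334).

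**Figure D4:**
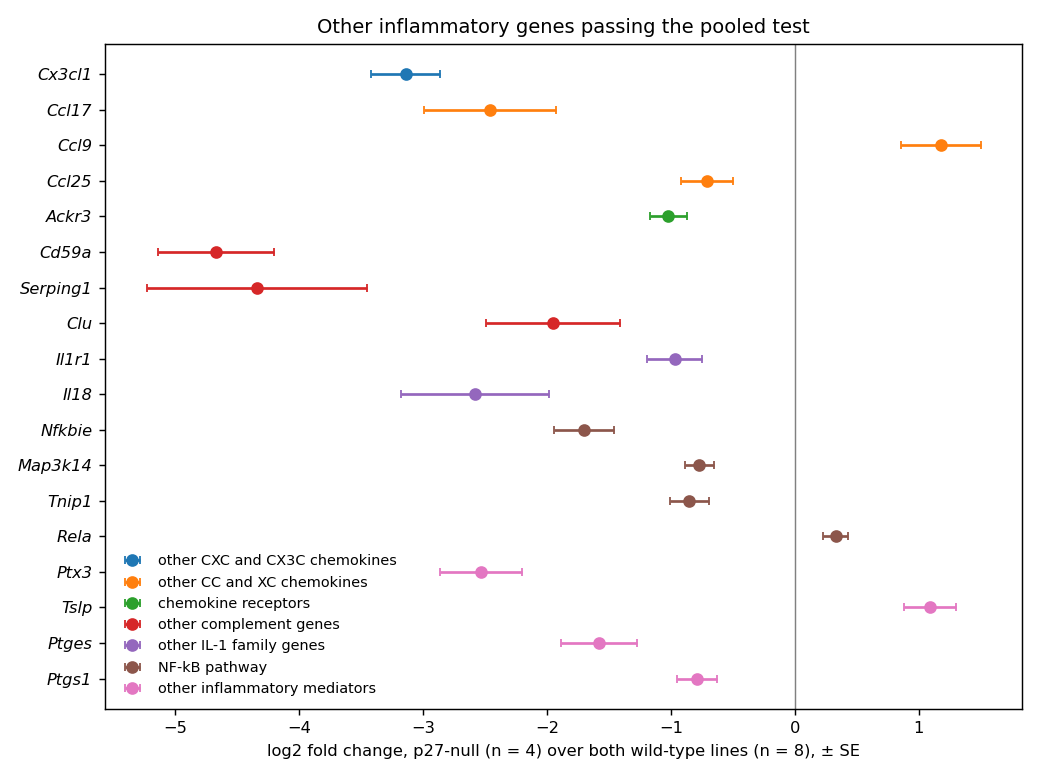
Fitted log2 fold change, line labelled p27-null (n = 4) over both wild-type lines (n = 8), with its SE, for 18 named genes of the 7 lists that passed the pooled test and had more than 3 counts in the line labelled p27-null; colours give the list. C1s1, named after its value was seen, also passed and is not drawn. Ccl9, Rela and Tslp lie above 0 and Cd59a, at -4.67, lies lowest.

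Between the wild-type lines the named genes moved in both directions. The collagenase gene Mmp13 was higher in wild-type line 2 (log2 difference 5.65 ± 0.39, edgeR adjusted p = 1.27e-07), but rested on 8 counts in wild-type line 1. Wild-type line 2 was also higher for the complement protease gene C1ra (2.11 ± 0.26, adjusted p = 2.21e-05), Il1rl2 (1.97 ± 0.22, adjusted p = 1.16e-05), Il18rap (2.21 ± 0.19, adjusted p = 1.15e-06) and Birc3 (1.24 ± 0.13, adjusted p = 4.19e-06). It was lower for Cxcl16 (-2.58 ± 0.44, adjusted p = 0.000341), the cytokine gene Lif (-1.97 ± 0.19, adjusted p = 2.15e-06), the kinase gene Ikbkb (-0.92 ± 0.08, adjusted p = 7.49e-07) and Ccl27a (-0.62 ± 0.21, adjusted p = 0.0306, up to 0.0785 with 1 library left out).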

How the data were processed

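Per the submitters' processing notes, FastQC and STAR 2.5.4a were used with the GRCm39 build. The sources used here do not name the GENCODE release or the strand setting. The table deposited by the authors holds, per the file headers, raw counts per gene, CPM and log2 CPM, and the authors' own log2 fold changes. From the counts, edgeR 4.0.16 (R 4.3.3; TMM, filterByExpr, quasi-likelihood F test, two-sided, Benjamini-Hochberg over 14392 genes, threshold 0.05) gave the pooled comparison, and a fit with 1 mean per line the others. The SE is the log2 difference divided by the square root of F. The edgeR steps were tested on simulated data. The simulation gave both wild-type lines the same mean and held no outlying experiment 1 libraries, so it does not cover these features of the data. Of 15207 entries, 51 name no gene (2.04 to 5.25% of a library's counts) and were left out. No libraries were duplicates by a chi-square test.

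The 7 members, and all gene lists, were chosen with earlier results of these data known. Named genes were the members and the known receptors, up to 4 per list by the smallest pooled adjusted p, up to 2 more by the test between wild-type lines, neighbours within 250 kb, and 3 genes alike per member. Deviations of same-numbered libraries from their line means correlated in all 12 pairs (r from 0.11 to 0.86), so the number was used as a block in an alternative. Further alternatives left out each library in turn, dropped the filter, averaged the wild-type line means, or used DESeq2 1.42.0 or only its size factors. Positions and exon lengths are from GENCODE vM39 (15153 of 15156 entries matched); promoter windows are from RefSeq. Other steps used Python 3.11.15, numpy 2.4.6, pandas 2.3.3, scipy 1.17.1 and matplotlib 3.10.9. Counting intervals cover counting error only. 1 complement gene among those that passed is not reported here.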

Additional observations from a re-analysis of the deposited data

Results flagged for a closer look

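Cxcl12 in wild-type line 1 was picked out by Dixon's test within a line: the experiment 3 library, at 1575 CPM, stood apart from the other 3 libraries of that line, at 1297 to 1331 CPM, with a gap of 0.877 of the range of the line. The 7 members in 3 lines gave 21 groups, and chance alone picks out about 1 in 20 groups, so 1 such library is near what chance gives.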

How the results depend on the processing

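In the pooled comparison 21 listed genes passed, 33 with DESeq2 (3 higher, 30 lower), 40 against the mean of 2 wild-type line means (7 higher, 33 lower), 19 with the experiment number as a block, and 18 to 25 with 1 library left out. Leave-one-out ranges were 44 to 50 against wild-type line 1, 38 to 43 against line 2 and 51 to 57 between wild-type lines, where main counts were 49, 41 and 53 and the block gave 53, 44 and 58. Among the listed genes named for a call between lines, the block changed the calls already given for Ccl9, Ccl25 and C1s1 and no others. Neighbours outside the lists were not followed there. For experiment 1, 8 listed genes passed, and 0 to 13 with 1 library left out: 0 without the experiment 1 library of wild-type line 1 or of the line labelled p27-null, 0 without both (chosen after seeing the data; experiment 1 is then 1 library), and 13 without the experiment 4 library of wild-type line 1; members passing were 0 to 1. In that comparison Cxcl5 ranged from -0.95 to 0.06 (0.02 without both), Ccl7 from -0.05 to 0.24 and C3 from -2.02 to 0.09 (0.13 without both), each with a change of sign; the cause was not tested. The pooled log2 difference of Cxcl12 became 0.53 against wild-type line means. Of 1160 alternative values, 1110 were graded as unchanged. For a count of listed genes that grade allows a limited shift in the count, so single calls could still be gained or lost. Counts limit C3, Cxcl5, Cxcl14, Serping1, Cd59a and Ccl17 in the line labelled p27-null, and 1 line per knockout genotype limits every comparison with it.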

Other observations

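The experiment number also set apart some listed genes. Of 79 listed genes 1 rose and 7 fell in experiment 1 (n = 3) against experiments 2 to 4 (n = 9), with the line as a term, which is 10.1% beside 18.6% of all genes. Il1rap, the co-receptor of Il1rl1, fell by 0.58 ± 0.13 (SE) on the log2 scale (edgeR adjusted p = 0.00979), as did Il1rl2 by 0.59 ± 0.14 (adjusted p = 0.0132) and Irak3 by 0.71 ± 0.18 (adjusted p = 0.0193). The NF-kB genes Rel and Chuk fell by 0.58 ± 0.12 and 0.39 ± 0.12 (adjusted p = 0.00863 and 0.0362), and Tnfaip3 rose by 0.38 ± 0.10 (adjusted p = 0.0240). The cytokine receptor genes Osmr and Il6ra fell by 0.62 ± 0.13 and 0.43 ± 0.13 (adjusted p = 0.00888 and 0.0347). These genes, named after their values were seen where the naming rule did not hold them, all had overlapping libraries, and none passed without the experiment 1 library of wild-type line 1 or that of the line labelled p27-null.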
